A study of Danio rerio with 82 samples.

Results

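The comparison sets stage III oocytes against stage II oocytes of wild type zebrafish (Danio rerio, strain Tu), with poly(A) RNA sequencing of 1 library per stage. A member is a locus whose level in FPKM (fragments scaled by transcript length and library size) averaged at least 1 over the 2 libraries, and 14412 of the 28405 loci listed in the files met that level. The labels call the stage II library an S-phase oocyte and the stage III library a prophase I oocyte. Oocytes of both stages were picked by morphology from the ovaries of adult females, and the follicle cells around them were taken off as far as this could be done. No treatment, transgene or mutation separates the groups, and the sources used here do not say how many females or oocytes went into a library. The series holds 82 samples in all, and the stage I and stage IV oocyte libraries made in the same way, also 1 each, are shown beside the comparison as values that the choice of members did not use.

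A fish oocyte grows inside a follicle, where granulosa cells touch it through gap junctions and an outer theca layer carries vessels and steroid-making cells. During stage II the oocyte fills with cortical granules and builds its egg envelope, and during stage III it takes up vitellogenin, the yolk precursor that the liver secretes under oestrogen. The oocyte stores messenger RNA for the early embryo during growth and remains arrested in meiotic prophase until a maturation hormone acts on it, while luteinising hormone receptor appears on follicle cells as the follicle approaches maturity.

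The summed FPKM over all loci was 708661 in stage II and 805766 in stage III, and the authors' confidence bounds correspond to at least 6606980 and 6572489 fragments. Rescaling both libraries to the same sum shifts stage III against stage II by -0.19 on the log2 scale before 1 FPKM is added, so list medians are given beside the median over all members. Of the 10 oocyte markers, 9 were listed, and 8 of these had values of 1 FPKM or more. The remaining one, figla, was listed at 0 in all 4 libraries. Markers of other cells were present in both libraries. The 10 follicle markers summed to 282 FPKM in stage II and 465 FPKM in stage III, the 8 smooth muscle and stroma markers to 81.4 and 263 FPKM, the 5 endothelial markers to 8.87 and 20.2 FPKM, and the 7 listed blood and macrophage markers to 23.4 and 73.8 FPKM. In the follicle sum, the largest rises were at hsd3b1 (12.6 and 125 FPKM) and cyp11a1 (138 and 205 FPKM). Of these 10 markers 3 were called higher, and 1, gsdf (32.4 and 8.66 FPKM), was called lower. Unlike the sums above, that of the 6 epithelial markers was lower in stage III, at 1019 and 883 FPKM. Most of that sum was epcam (870 and 462 FPKM), while 4 of the 6 were called higher and none lower. The stroma markers summed to 266 FPKM in stage I and 3.45 FPKM in stage IV, and the blood markers to 41.3 and 3.18 FPKM. Both sums were thus lower in stage II than in stage I or stage III. Single markers did not all follow the sums. From stage I through III pdgfra had 5.24, 6.35 and 5.72 FPKM, pdgfrb 20.8, 3.56 and 3.25, spi1b 5.05, 6.43 and 18.5, and mpx 0.70, 0.967 and 2.31. No follicle, stroma, endothelial or blood marker in the files was at 0 in stage II or stage III. In such bulk libraries, fewer cells of a type and less RNA per cell cannot be told apart.

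Stage III had 1335 loci at least 2-fold higher than stage II on the log2(FPKM + 1) scale, which is 9.26% of the members, and 1054 loci at least 2-fold lower, which is 7.31%. The other 12023 members differed by less. The authors' bounds of the 2 libraries did not overlap at 1191 of the higher loci (8.26% of members) and 946 of the lower loci (6.56%). Differences were larger on the higher side, where 264 loci passed 4-fold and 56 passed 8-fold, against 61 and 17 on the lower side. The median difference over all members was -0.08. Higher loci made up 55.9% of the calls, but 39.7% after both libraries were rescaled to the same sum, and 40.4% where the mean had to reach 10 FPKM, so the balance of directions changes with the scaling and with the floor. That rescaling also raised the values of both libraries against the added 1 FPKM. Throughout, 2-fold refers to the log2(FPKM + 1) scale. With 1 library a side there is no replicate check and no test, and the bounds describe the counting within a library only. The loci nearest to the lines were ptpn20 (1.83 and 4.66 FPKM in stages II and III) just inside and slc6a8 (2.76 and 6.52 FPKM) just outside the higher call, and chn1 (44.5 and 21.7 FPKM) just inside and cnn3b (45.2 and 22.1 FPKM) just outside the lower call. At the floor on the mean, H2AFY (15 of 16) was the lowest member (2.0 and 0 FPKM), and si:dkey-15h8.2 (1.18 and 0.824 FPKM) was the first locus left out.

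**Figure D1:**
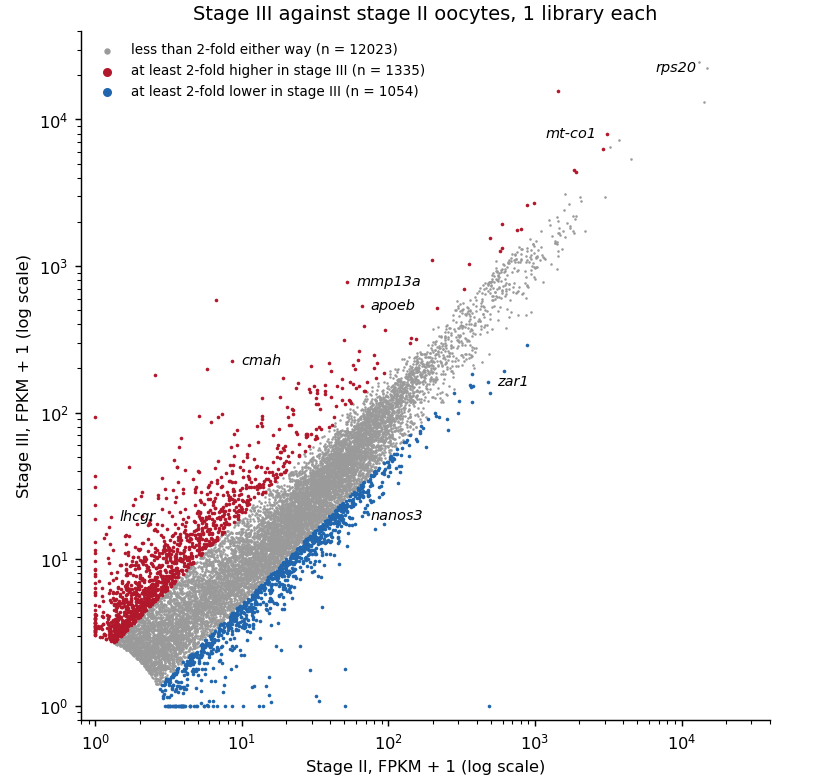
Each point is 1 of the 14412 members, with FPKM + 1 in stage II on the x axis and in stage III on the y axis, both log scales. Red points (1335) were at least 2-fold higher and blue points (1054) at least 2-fold lower in stage III, and the red points reach further from the diagonal, with lhcgr, cmah, mmp13a and apoeb labelled among them.

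The 15 largest higher differences, among loci with bounds apart, a mean of at least 5 FPKM and a span of at least 300 bases, held a hormone receptor, a collagenase and an ion transporter beside loci named only by clone. The largest of them was at si:ch211-69i14.10 (chr5:39484191-39486244, danRer7), at 33.7, 5.67, 587 and 0.393 FPKM from stage I through IV. It was far higher in stage III than in any other stage, and its bounds of 0.771 to 10.6 FPKM in stage II and 538 to 636 FPKM in stage III were far apart. The locus CABZ01064405.1 (chr3:6273243-6307324) had 12.5, 1.56, 179.6 and 0.257 FPKM, the same shape. The gene cmah (chr4:2091681-2111243), whose mammalian counterpart hydroxylates the sialic acid precursor CMP-Neu5Ac, had 7.96, 7.57, 223 and 0.164 FPKM, a difference of 4.71 (bounds 4.49 to 4.95). The collagenase mmp13a (chr10:39959934-39979810) had 57.6, 51.2, 771 and 0.89 FPKM, the highest level in stage III of these 15. Stages I and II were close to each other at both genes, and stage III stood above them.

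The receptor for luteinising hormone, lhcgr (chr13:48032594-48078036), had 1.08, 0.269, 18.3 and 0 FPKM, a difference of 3.93 (bounds 3.59 to 4.30). Its other stages were all far below stage III. The sodium bicarbonate cotransporter slc4a4a was at 2.86 and 66.5 FPKM in stages II and III, the ankyrin repeat and SOCS box gene asb11 at 4.09 and 93.1 FPKM, and rprmb, a homologue of the p53 target Reprimo, at 0.696 and 41.7 FPKM. The clathrin assembly gene picalmb was at 2.73 and 57.1 FPKM with wide bounds in stage III (18.7 to 95.4 FPKM). It also had 9.14 FPKM in stage I and 17.7 FPKM in stage IV, with bounds that reached 0 in both. The other loci of the 15 were si:ch211-266o15.4, si:dkey-26c10.5, si:dkeyp-51f2.3, si:dkey-21c19.4, CU928070.1 and si:dkey-119m7.4, with differences of 3.78 to 5.21. Bounds were wide at si:dkeyp-51f2.3 (0 to 6.64 and 7.52 to 52.6 FPKM in stages II and III) and allow a difference as small as 0.157. At si:ch211-266o15.4 they allow one as small as 1.13. Over the whole table, 31 members with a mean of at least 5 FPKM had more than 10 times the level of every other stage in stage III, beside 2 such members for stage II.

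The 15 largest lower differences, by the same rule, were of another kind, mostly of loci that were near 0 in stage III and present in stages I, II and IV. The ribonucleotide reductase gene rrm2 at chr20:29518377-29525282 had 49.1, 28.2, 0.747 and 183 FPKM from stage I through IV. A locus with the same symbol at chr19:49363393-49368575 had 124, 95.2, 97.9 and 179 FPKM, so the low value in stage III was at 1 of the 2 rrm2 loci. Reads that match both could have been divided between them by the counting, which was not tested. The same holds for tbl2 (transducin beta like 2), at 11.3, 14.7, 0.0522 and 16.8 FPKM at one locus of chromosome 10 and at 27.9, 33.3, 42.9 and 7.66 FPKM at another locus of that chromosome.

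SMIM13 (2 of 2) (chr19:4289432-4295309) had 16.6, 49.7, 0 and 210.3 FPKM, and C7 (2 of 2) (chr21:19729380-19743166), named after complement component 7, had 25.7, 32.5, 0.0686 and 22 FPKM. Both symbols say that the annotation holds a second copy, so reads could have been divided there too. This was not tested. The glycosyltransferase gene b3galtlb had 17.1, 12.8, 0 and 14.6 FPKM. The loci zgc:173443 (chr10:7106469-7108237) and si:ch211-251f6.6 (chr10:7087703-7089073) lie 17.4 kb apart and were at 49.5 and 10.7 FPKM in stage II and 0.767 and 0.35 FPKM in stage III. In all, 12 members with a mean of at least 5 FPKM were in stage III below 0.1 times the level of each of the other stages, beside 2 such members for stage II. Of the 12, 3 had a second locus with the same symbol and 2 were numbered copies. The share of such loci among all members was not counted, so nothing is drawn from these counts. The remaining named loci were pik3ap1 (23.9 and 1.54 FPKM in stages II and III), an adaptor of phosphoinositide 3-kinase, the nicotinic receptor subunit chrnb3b (17.6 and 1.41 FPKM), the deubiquitinase usp24 (33.9 and 3.71 FPKM), zgc:173544, zgc:171699, si:dkeyp-68b7.7, si:dkey-81j5.4 and si:ch211-261a10.5. The bounds of usp24 were wide (12.6 to 55.2 and 0 to 10.2 FPKM) and allow a difference as small as -0.28.

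**Figure D2:**
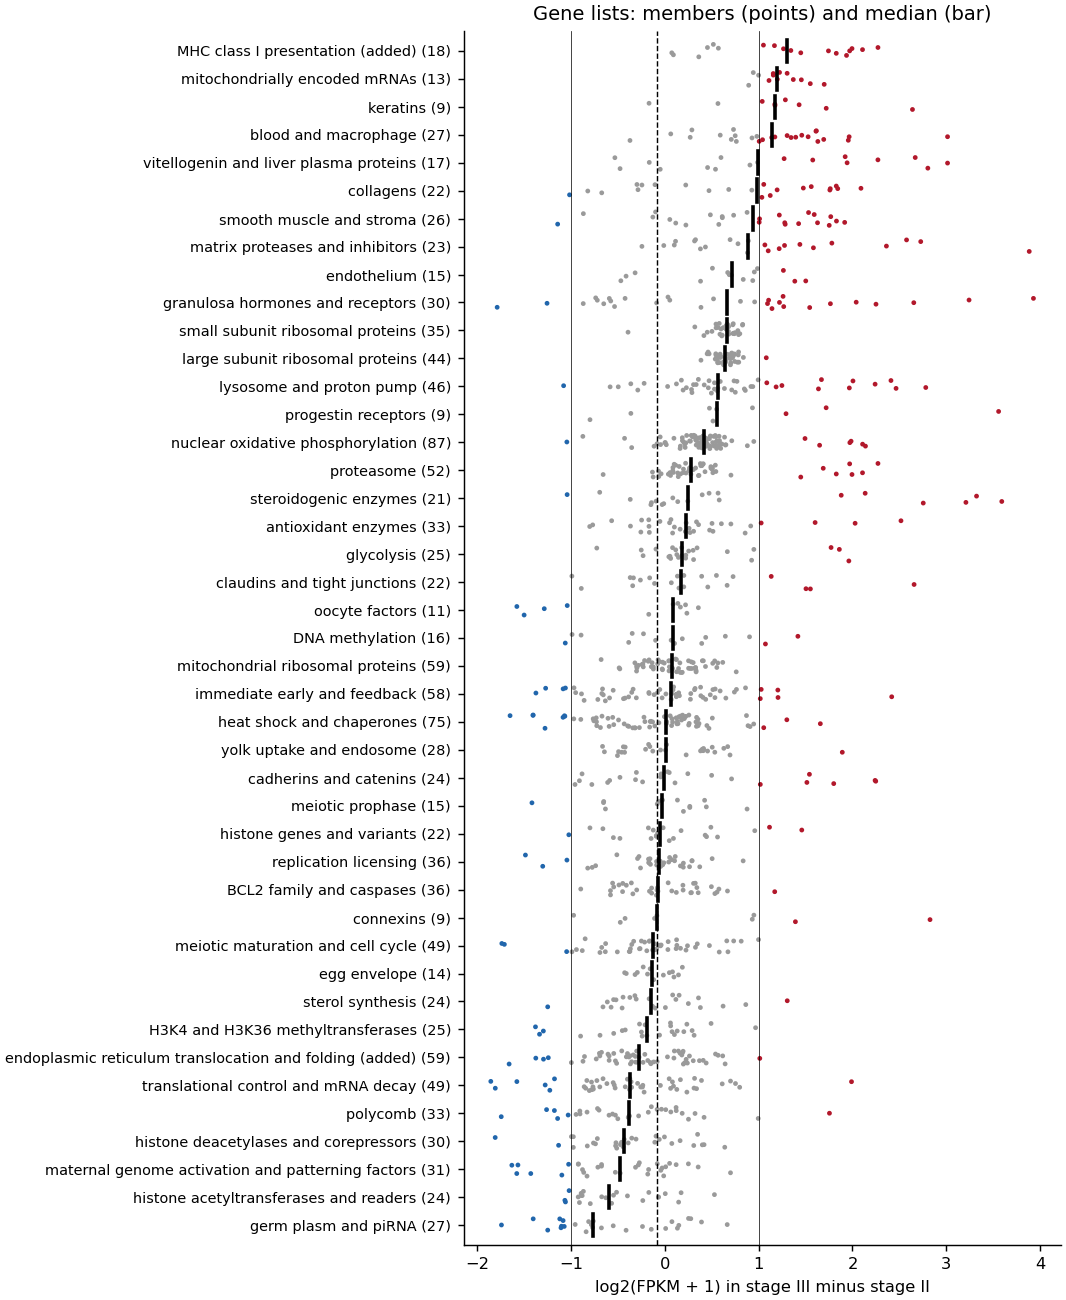
Each point is a measured gene of a list, placed by log2(FPKM + 1) in stage III minus stage II, with red at least 2-fold higher and blue at least 2-fold lower. Black bars are list medians, the dashed line is the median over all members (-0.08), thin lines mark 2-fold, and the number measured is in brackets. Medians run from -0.76 for germ plasm and piRNA genes to 1.3 for MHC class I presentation, a list drawn up after the values were seen.

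Genes of the egg envelope, the glycoprotein coat that the oocyte builds around itself, were near the same level in both stages. None of the 14 measured was called either way, and their differences ran from -0.43 to 0.19 (median -0.14). The zona pellucida gene zp3b had 1784, 1428, 1164 and 70.8 FPKM from stage I through IV, and zp2.3 had 435, 289, 329 and 16.3 FPKM. Their level in stage IV was far below that in the other 3 stages.

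Among 11 oocyte factors, 4 (36.4%, beside 7.31% of all members) were at least 2-fold lower in stage III and none was higher. The zygote arrest gene zar1, which encodes an RNA-binding protein of oocytes, had 836, 479.5, 159.8 and 21.7 FPKM, lower at each later stage, and its bounds in stages II and III (457 to 502 and 150.5 to 169 FPKM) did not overlap. The oocyte-secreted growth factor gdf9 had 33.8, 39.7, 13.4 and 8.99 FPKM, and its relative bmp15 had 94.4, 113, 119.6 and 13.1 FPKM, so of this pair of TGF-beta ligands gdf9 was lower in stage III and bmp15 was not. The homeobox genes nobox (21.5 and 8.21 FPKM in stages II and III) and lhx8a (92 and 44.2 FPKM) were the other lower ones. The zar1 relative zar1l was at 903 and 1062 FPKM, the nucleoplasmin npm2b, a histone chaperone of the egg, at 449 and 522 FPKM, and btg4, an adaptor of the deadenylation of maternal messages, at 245 and 274 FPKM. The list median was 0.09 and took the other sign (-0.10) after rescaling to equal sums.

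Germ plasm and piRNA genes had the lowest median of all the lists, -0.76, with 8 of 27 at least 2-fold lower and none higher. Their share lower was 29.6%, beside 7.31% of all members. Germ plasm is the RNA and protein deposit that specifies germ cells, and piRNAs are small RNAs that silence transposons in the germ line. The germline RNA-binding gene nanos3 was at 66.4, 65.1, 18.7 and 25.8 FPKM over the 4 stages in order, and its stage II and stage III bounds (59.7 to 70.4 and 15.9 to 21.6 FPKM) did not overlap. It was level over stages I and II and lower in III and IV. The tudor domain genes, whose proteins gather Piwi complexes, included 4 called lower, with tdrd9 at 26.5 and 9.37 FPKM, tdrd1 at 45.7 and 18.6, tdrd5 at 38.7 and 17.3, and tdrd6 at 77.7 and 35.6 in stages II and III. The piRNA factor asz1 (78.4 and 36.4 FPKM) and dnd, a germ plasm RNA-binding gene (36 and 16.1 FPKM), were also called lower, as was zgc:165409 at a low level.

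Other genes of that list fell short of 2-fold. The RNA helicase vasa was at 112 and 57.3 FPKM, dazl at 68.8 and 42.7, and the Piwi proteins piwil1 and piwil2 at 38.4 and 28.5 and at 39.3 and 22.4 FPKM. The gene buc, whose product organises the Balbiani body, had 749, 601, 728 and 118 FPKM and was not lower in stage III. The carbonic anhydrase ca15b (622 and 816 FPKM) and rbpms2b, an RNA-binding partner of buc (635 and 696 FPKM), were likewise not lower. The summed FPKM of the list was 0.445% of the stage II total and 0.39% of the stage III total. Differences within it ran from -1.74 to 0.66.

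**Figure D3:**
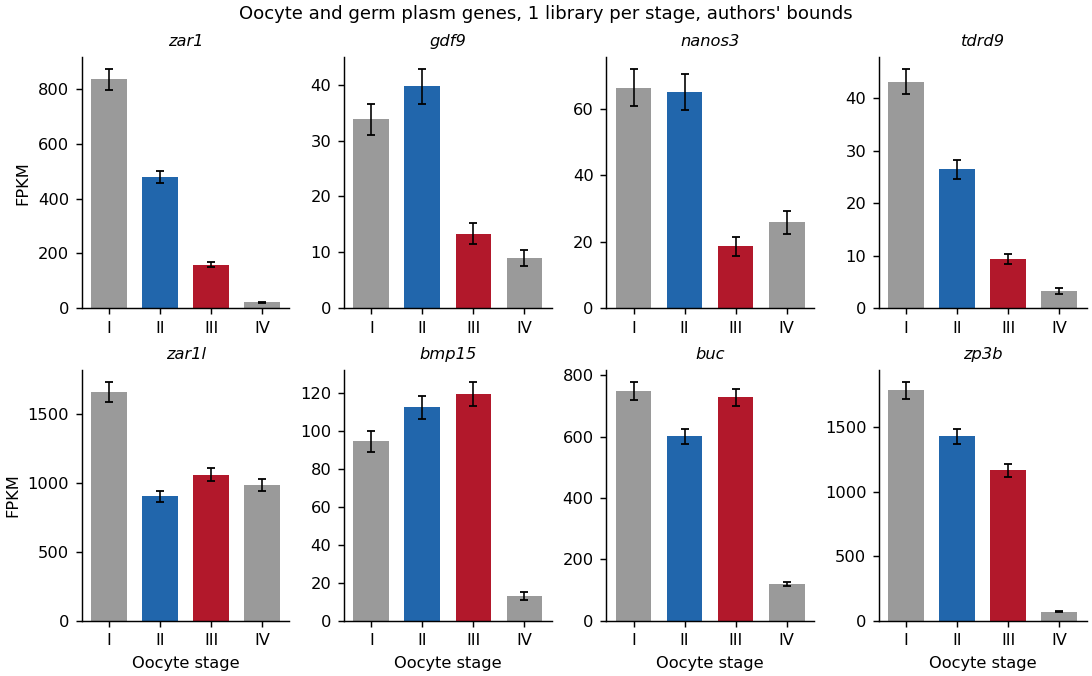
Bars are FPKM in the stage I, II (blue), III (red) and IV libraries, 1 per stage, and error bars are the authors' confidence bounds. The genes zar1, gdf9, nanos3 and tdrd9 in the upper row were lower in stage III than in stage II with bounds apart, and zar1l, bmp15, buc and zp3b in the lower row differed by less than 2-fold.

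Maternal factors for genome activation and patterning of the embryo also had a median below that of all members, -0.48, with 6 of 31 lower and none higher. Their share lower was 19.4%, beside 7.31% of all members. The T-box gene eomesa had 38.9, 50.5, 16.4 and 217 FPKM from stage I through IV, so stage III was the lowest and stage IV the highest. The dorsal signal wnt8a was at 30 and 10.5 FPKM in stages II and III, and the BMP receptor genes bmpr1aa and acvr1l were at 22 and 6.71 and at 48.8 and 22.2 FPKM. The insulator protein gene ctcf was at 64 and 30.9 FPKM. The orphan receptor nr6a1a was called lower (15.1 and 4.18 FPKM), but its bounds overlapped. The genome activators nanog (376 and 211 FPKM), pou5f3 (14.8 and 8.61 FPKM) and sox19b (30.4 and 26.8 FPKM) stayed within 2-fold. At the other end of the list stood ybx1, a repressor of maternal translation, at 412 and 669.6 FPKM.

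Most lists of chromatin regulators had medians below that of all members (-0.08). The median over members varied with level, however. It was 0.11 at a mean of 1 to 5 FPKM, -0.24 at 5 to 20, -0.17 at 20 to 100 and 0.19 above 100 FPKM. Members of 5 to 20 FPKM were lower in 9.77% of cases. The lists were not compared with members of equal level. With a mean of at least 10 FPKM, the median of H3K4 and H3K36 methyltransferases was above that of all members (-0.06, beside -0.14). Of 24 histone acetyltransferases and acetyl-lysine readers, 3 were lower and none higher (median -0.60), with crebbpa, a CBP acetyltransferase, at 19.4 and 8.74 FPKM, brpf3 at 13.9 and 6.16 FPKM and the bromodomain gene brd2b at 23.2 and 10.9 FPKM in stages II and III. The share lower was 12.5%, beside 7.31% of all members. Of 30 deacetylases and corepressors, 2 (6.67%, beside 7.31% of all members) were lower and none higher (median -0.44). These were the scaffold sin3b (13.1, 21.6, 5.44 and 7.15 FPKM from stage I through IV) and its complex member sap130a (11.4 and 4.63 FPKM in stages II and III). The deacetylase hdac1 was at 173 and 193 FPKM.

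Polycomb genes, which place and hold repressive histone marks, had 5 of 33 lower and 1 higher (median -0.38). Their share lower was 15.2%, beside 7.31% of all members. The chromobox gene cbx2 had 21.3, 30.1, 8.26 and 159 FPKM, lowest in stage III. The H3K27 methyltransferase ezh2 was at 11.5 and 4.63 FPKM in stages II and III, its partner aebp2 at 16.4 and 6.25 FPKM, cbx8b at 42 and 18 FPKM and bmi1a at 103 and 49.8 FPKM. The core partner eed (165 and 179.5 FPKM) and the ubiquitin ligase rnf2 (92.9 and 93.4 FPKM) were near level, and phf19, the higher one, had overlapping bounds. Among 25 H3K4 and H3K36 methyltransferase genes, 3 were lower and none higher (median -0.19): prdm9, which marks recombination sites in mammals (31.9 and 11.6 FPKM), whsc1 (32.2 and 12.5 FPKM) and whsc1l1 (10.7 and 3.62 FPKM). That is 12% lower, beside the same 7.31%.

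Of 16 DNA methylation genes 2 were higher and 1 lower. These shares, 12.5% and 6.25%, are near the 9.26% and 7.31% of all members. The maintenance methyltransferase dnmt1 had 208, 247, 386 and 1095 FPKM, a difference of 0.64 with bounds apart but short of 2-fold. The methyltransferase dnmt3 was lower (18.8 and 8.5 FPKM in stages II and III), and tet3, a dioxygenase that oxidises methylcytosine, was higher at a low level (0.496 and 2.15 FPKM), as was gadd45aa (0.677 and 3.48 FPKM). Both higher genes were under 1 FPKM in stage II and passed the floor through stage III. Among 22 histone genes and chaperones, the linker histones h1f0 (8.39 and 24.8 FPKM) and h1fx (8.03 and 18.6 FPKM) were higher, and the H2A.Z gene h2afva (461, 371, 182 and 1037 FPKM from stage I through IV) was lower. The shares were 9.09% higher and 4.55% lower, also near those of all members. The medians of the last 2 lists, 0.08 and -0.05, changed sign with the scaling.

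Genes that control translation and decay of stored messages had 6 of 49 lower and 1 higher (median -0.37). Their share lower was 12.2%, beside 7.31% of all members. The largest lower difference was at eif4enif1, which encodes the eIF4E-binding repressor 4E-T, with 68.7, 72.1, 19.2 and 26.5 FPKM from stage I through IV. The RNA-binding gene igf2bp3 was at 52.1 and 14.2 FPKM in stages II and III, the m6A reader ythdf3 at 31.4 and 12.4, the cap-binding gene eif4ea at 55.7 and 23.2 and the deadenylase cnot7 at 18.8 and 7.76 FPKM, and zar1, above, is the sixth. The oocyte polyadenylation factor cpeb1b was at 556 and 427 FPKM, within 2-fold. The higher gene was pabpc1b, a poly(A)-binding protein (5.57 and 25.1 FPKM), while the more abundant pabpc1a was at 518 and 900.3 FPKM.

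Cell cycle genes for meiotic maturation were mostly within 2-fold, with 3 of 49 lower (6.12%, beside 7.31% of all members) and none higher (median -0.13). The lower ones were the cyclin ccna2 (325, 254, 75.3 and 278 FPKM from stage I through IV), the inhibitory kinase wee1 (34.2 and 9.74 FPKM in stages II and III) and the phosphatase cdc25 (101 and 48.4 FPKM), which act in opposite directions on cyclin-dependent kinase 1. The maturation kinase mos was at 261 and 252 FPKM, the kinase cdk1 at 106 and 124 FPKM and its cyclin ccnb1 at 864 and 608 FPKM. The labels name an S-phase and a prophase oocyte. Replication licensing genes had 3 of 36 lower and none higher (median -0.07, whose sign changed with the scaling). Their 8.33% lower is near the 7.31% of all members. The kinase activator dbf4 was at 11.2 and 3.34 FPKM and the licensing factor cdt1 at 167 and 80.4 FPKM, while pcna, the sliding clamp, was at 361 and 433 FPKM. Of 15 meiotic prophase genes, 1 (6.67%) was lower, and the other 14 were not called. The lower one was the synaptonemal complex gene sycp2l (36.1, 39.4, 14.1 and 2.91 FPKM from stage I through IV).

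Ribosomal protein genes had like differences, nearly all positive and below the 2-fold line. All 44 large subunit genes had a positive difference, from 0.38 to 1.08 with a median of 0.64, and 1 of them, rpl5a (139 and 295 FPKM in stages II and III), was called higher. For the small subunit 34 of 35 differences were positive (median 0.66), and the exception, rps6kal, is a kinase caught by its symbol. These medians stayed between 0.46 and 0.75 under every setting tried. The gene rps20 stood far above the other ribosomal genes at 25433, 14834, 22582 and 14003 FPKM from stage I through IV. Genes of mitochondrial ribosomes had no call among 59 and a median of 0.08.

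The 13 messages encoded by the mitochondrial genome all had positive differences, from 0.89 to 1.7 with a median of 1.2. Of these, 10 were past 2-fold (76.9%, beside 9.26% of all members). The cytochrome oxidase subunit mt-co1 had 1953, 3096, 7999 and 5591 FPKM, and the complex I subunit mt-nd2 had 242, 595, 1934 and 1427 FPKM. Both were lowest in stage I and highest in stage III. Together the 13 made up 4.89% of the summed FPKM in stage II and 9.14% in stage III. Nuclear genes of oxidative phosphorylation had 78 of 87 positive differences with a median of 0.42, and 6 were called higher and 1 lower. All 6 were low-level genes, cox5b2, cox8b, cox6b1, cox7a1, cox6a2 and ndufa4, which summed to 23 FPKM in stage II and 106 FPKM in stage III. The other 81 summed to 13580 and 17905 FPKM, and the lower call was ndufs8b (21.3 and 9.81 FPKM). The division into 6 and 81 followed the calls and was made after the values were seen. The share called higher, 6.90%, is below the 9.26% of all members.

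**Figure D4:**
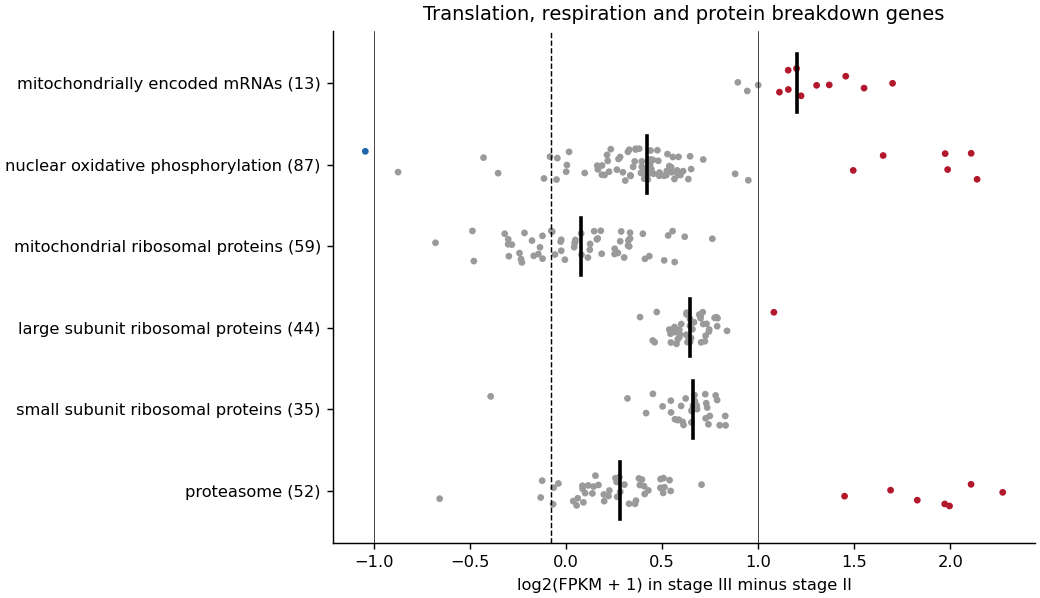
Points are genes of 6 lists placed by log2(FPKM + 1) in stage III minus stage II, bars are medians, the dashed line is the median over all members, and thin lines mark 2-fold in either direction. The mitochondrially encoded messages (0.89 to 1.7) and both sets of ribosomal protein genes form tight groups to the right, while in the proteasome list 7 genes stand apart from the other 45.

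Proteasome genes were divided in the same way. Of 52 genes 7 were higher (13.5%, beside 9.26% of all members) and none was lower. Of these, psmb8 (9.32, 4.73, 26.7 and 0 FPKM from stage I through IV), psmb9a (4.43 and 13.8 FPKM in stages II and III) and psmb10 (2.38 and 13.6 FPKM) encode the immunoproteasome's catalytic subunits in mammals, and psme1 and psme2 (9.22 and 35.3, and 4.2 and 19.7 FPKM) its activator. The remaining called genes were psmb11 and psma6l. The other 45 had a median of 0.26, a range of -0.66 to 0.70 and a summed FPKM of 4138 in stage II and 4957 in stage III, and the standard catalytic subunit psmb5 was at 141 and 171 FPKM. The division into 7 and 45 was made after the values were seen. Blood and macrophage markers, which moved the same way, are given above, and their part in this result was not tested.

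Yolk uptake genes, which bind and internalise vitellogenin, were near level. Of 28 genes 1 was higher, lrp2a (megalin, an endocytic receptor, 0.652 and 5.13 FPKM), and none was lower. The share higher was 3.57%, beside 9.26% of all members, and the median of 0.01 changed sign with the scaling. The lipoprotein receptor vldlr, whose family includes the vitellogenin receptors, had 189, 250.1, 242 and 13.6 FPKM from stage I through IV. Lysosome and proton pump genes had 11 of 46 higher (23.9%, beside 9.26% of all members) and 1 lower (median 0.56). Of 27 blood and macrophage genes 16 were higher (59.3%, median 1.14), and their part in this result was not tested. The protease ctsd, which cleaves vitellogenin into yolk proteins in fish, was at 127, 141, 321 and 227 FPKM, and the abundant ctsba and ctsla were at 1695 and 2632 and at 622 and 919.5 FPKM in stages II and III. The largest differences were at hexb, a lysosomal hexosaminidase subunit (13.8, 12.7, 93.1 and 0.642 FPKM from stage I through IV), and the tetraspanin cd63 (74.8, 38.2, 215 and 2.95 FPKM). Unlike ctsd, these were near 0 in stage IV.

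Of 65 vitellogenin and plasma protein symbols in the files, 17 were members, and 8 of these were higher and none lower. That is 47.1% higher, beside 9.26% of all members. The egg yolk precursor vtg1 had 22.6, 0, 3.83 and 2.21 FPKM, highest in stage I. With no floor the median over the 65 symbols was 0.01, against 0.99 over the 17 members. The apolipoprotein gene apoeb, which macrophages and other tissues also make, had 53.5, 64.8, 531 and 0.621 FPKM, and the fatty acid binding gene fabp11a had 29.8, 17.3, 127 and 1.23 FPKM. Of the 7 liver markers, apoa1a, fga, fgb, serpina1 and vtg2 were under 1 FPKM in both stages. The other two, vtg1 and the transferrin gene tfa (5.99 and 19.9 FPKM), were called higher, and the 7 summed to 7.62 FPKM in stage II and 25.4 FPKM in stage III.

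The follicle's hormone receptors and steroid enzymes divided sharply. The progestin receptor pgr had 5.59, 2.61, 41.6 and 0.321 FPKM, with bounds of 1.78 to 3.44 and 38.2 to 44.9 FPKM in stages II and III, the highest difference (3.56) of the 9 genes measured in the progestin receptor list. The androgen receptor ar (4.69 and 17.7 FPKM) and the oestrogen receptor esr2b (3.5 and 10 FPKM) were also called higher. The progesterone receptor membrane component gene pgrmc2 was at 106 and 60.7 FPKM. The receptor fshr for follicle-stimulating hormone was at 1.88 and 4.59 FPKM with bounds apart (1.28 to 2.48 and 3.65 to 5.53 FPKM), and its difference of 0.96 was just under the call.

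Of 26 steroidogenic symbols 21 passed the floor, and 6 of these were higher (28.6%, beside 9.26% of all members) and 1 lower. Genes under 1 FPKM in stage II, such as star and nr5a2, passed through stage III, so the count describes the genes that passed. The median was 0.24, but 0.13 with no floor and 0.04 with a mean of at least 10 FPKM. The cholesterol carrier star had 0.715, 0.659, 10.2 and 0 FPKM, and hsd3b1, which makes progesterone, had 9.02, 12.6, 125 and 0.408 FPKM. Stage III was the highest for both. The nuclear receptors nr5a2 and nr5a1a, activators of steroid enzyme genes, were at 0.147 and 12.8 and at 21.4 and 97.2 FPKM in stages II and III, and hsd17b3 was at 2 and 29 FPKM. In contrast, the aromatase cyp19a1a, which makes oestrogen, had 10.3, 34.3, 32.1 and 0.166 FPKM, and cyp17a1 had 74.7, 55.9, 55.4 and 33.8 FPKM. For each of these 2 genes the bounds of stages II and III overlapped. The side-chain cleavage enzyme cyp11a1 was at 138 and 205 FPKM.

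Among the 30 of 46 granulosa hormone and receptor genes that passed the floor, 13 were higher and 2 lower (median 0.66). These shares are 43.3% and 6.67%, beside 9.26% and 7.31% of all members. The median was 0.27 with a pseudocount of 5 and 0 over all 46, so the count describes the genes that passed. The inhibin subunit inha had 34.1, 12.6, 84.5 and 0.305 FPKM, its activin partner inhbaa was at 1.7 and 10.1 FPKM in stages II and III, and the gonadal growth factor igf3 was at 1.09 and 18.8 FPKM. The lower genes were gsdf, a gonadal TGF-beta factor of the cells around germ cells, at 18.4, 32.4, 8.66 and 0.636 FPKM, and has2, at 4.22 and 1.18 FPKM. The granulosa transcription factor foxl2 was at 4.24 and 4.36 FPKM. Its bounds were wide (1.81 to 6.66 and 2.23 to 6.49 FPKM) and allow a difference from -1.25 to 1.41. So within the follicle genes the differences ran from -1.79 (gsdf) through about 0 (cyp19a1a, cyp17a1) to 3.93 (lhcgr). The 10 fixed follicle markers had 3 higher and 1 lower. The share of follicle cells in each library was not measured, and its part in these values was not tested.

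**Figure D5:**
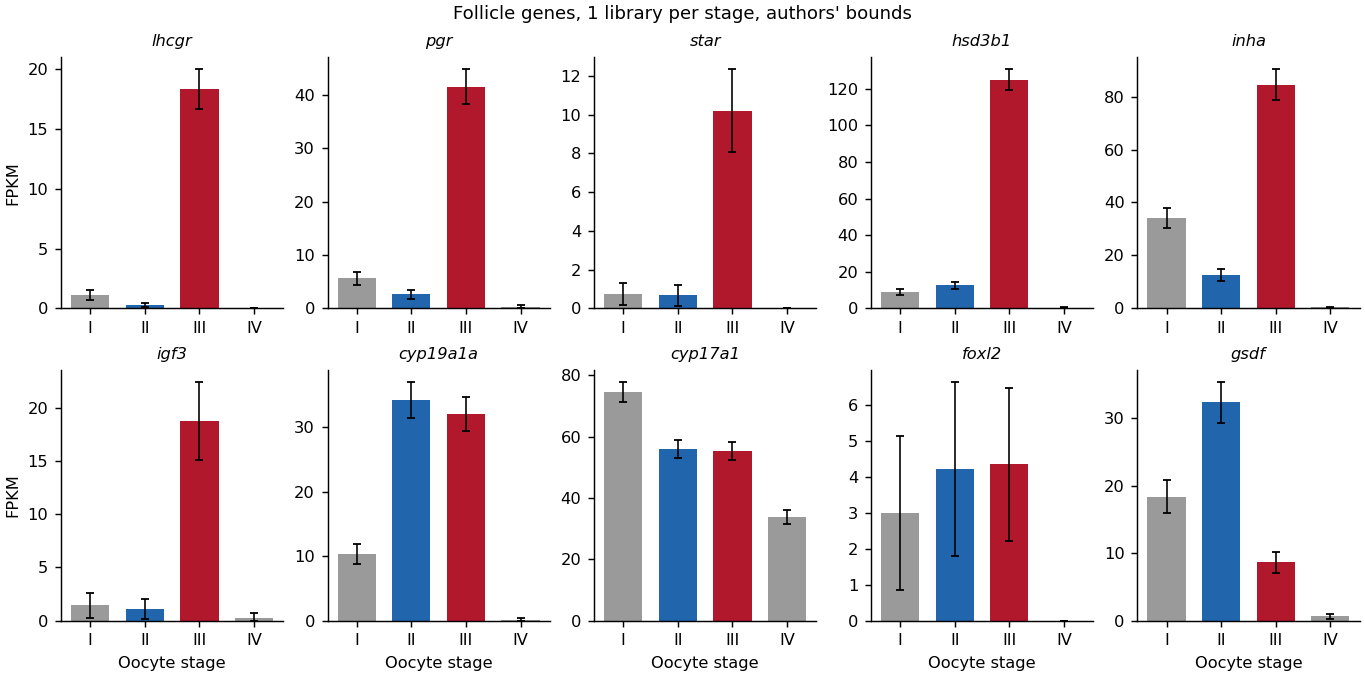
Bars are FPKM in the stage I, II (blue), III (red) and IV libraries, 1 per stage, and error bars are the authors' confidence bounds. The genes lhcgr, pgr, star, hsd3b1, inha and igf3 were highest in stage III, cyp19a1a, cyp17a1 and foxl2 had overlapping bounds in stages II and III, and gsdf was highest in stage II.

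Cell contact genes gave a few large differences. The connexin cx34.5, a gap junction gene, had 12.6, 28.5, 208 and 0.623 FPKM, while cx43 was at 24.5 and 17.3 FPKM and the abundant cx43.4 at 199 and 187 FPKM in stages II and III. The tight junction gene cldn11a had 78.2, 22.3, 146 and 0.61 FPKM, and the abundant claudin cldnd was at 2035 and 2979 FPKM. The cadherin cdh1 had 36.9, 28.2, 138 and 330.3 FPKM, so unlike cx34.5 and cldn11a it was higher still in stage IV. Among the genes that passed the floor, 2 of 9 connexins, 4 of 22 claudin and tight junction genes and 6 of 24 cadherins and catenins were higher, and none was lower. These shares are 22.2%, 18.2% and 25%, beside 9.26% of all members. The list medians were only -0.09, 0.18 and -0.006, and 0, 0 and -0.04 with no floor. Those of connexins and of cadherins and catenins changed sign with the setting. The cadherin and catenin genes summed to 1376 FPKM in stage II and 1092 FPKM in stage III. Of the 20 symbols in the keratin list 9 passed the floor, and 7 of these were higher (77.8%, beside 9.26% of all members) and none lower. The median was 1.17 over the 9 and 0.32 over the 20. The gene krt8 was at 130.4, 61.7, 152 and 1.83 FPKM and krt18 at 121, 52.8, 120.2 and 0.291 FPKM. One of the remaining pair, krtcap2, is not a keratin.

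Many stroma, vessel and blood genes were below the floor, and a low gene could pass it through stage III alone, so the counts describe the genes that passed. Medians with no floor were 0.23 for smooth muscle and stroma (46 symbols), 0.09 for collagens (57), 0.05 for matrix proteases and inhibitors (69), 0.58 for endothelium (26) and 0.74 for blood and macrophage genes (40), against 0 over all loci. Of 26 smooth muscle and stroma genes 13 were higher and 1 lower (median 0.94), with the actin acta2 at 80.4, 20.7, 81.1 and 0.703 FPKM and tagln at 130.3, 31, 113 and 0.192 FPKM. For both, stage I was close to stage III or above it. Of 22 genes in the collagen list 11 were higher and 1 lower (median 0.98). The fibrillar collagen col1a1a was at 8.01 and 24.1 FPKM, and the lower gene, col4a3bpa, encodes a lipid transfer protein, not a collagen. Of 23 matrix proteases and inhibitors 11 were higher and none lower (median 0.89), with mmp13a above, the protease mmp11b at 2.17 and 20 FPKM and the metalloprotease adam8a at 12.6 and 80.3 FPKM. Of 15 endothelial genes 3 were higher and none lower (median 0.71). Shares higher were 50% for smooth muscle and stroma, 50% for collagens, 47.8% for matrix proteases and inhibitors and 20% for endothelium. Over all members 9.26% were higher and 7.31% lower, and over members with a mean of 1 to 5 FPKM 16.5% were higher.

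Of 27 blood and macrophage genes 16 were higher (59.3%, beside 9.26% of all members) and none lower (median 1.14). The leukocyte gene ptprc had 4.35, 2.56, 9.89 and 0.357 FPKM, the macrophage gene mpeg1 had 5.41, 1.25, 7.72 and 0 FPKM, and the haemoglobin gene hbaa1 had 20.7, 6.97, 19.3 and 2.2 FPKM. Each was lower in stage II than in stages I and III and lowest in stage IV. Not all blood genes shared this shape. The markers spi1b (5.05, 6.43, 18.5 and 0.0789 FPKM) and mpx (0.70, 0.967, 2.31 and 0.392 FPKM) were not lower in stage II than in stage I.

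Stress and metabolic lists had medians from -0.15 (sterol synthesis) to 0.23 (antioxidant enzymes), against -0.08 over all members. Of 58 immediate early and feedback genes, which respond within minutes to handling or signals, 5 were higher and 4 lower. These shares, 8.62% and 6.90%, are near the 9.26% and 7.31% of all members. The stress gene fos was at 157 and 158 FPKM, egr1 at 37.3 and 52.5 FPKM, and id1, a BMP target, at 19.3 and 107 FPKM. Heat shock and chaperone genes had 3 of 75 higher (4%) and 7 lower (9.33%), with dnajb1a at 18.7 and 5.25 FPKM and the cytosolic hspa8 at 976 and 1234 FPKM. Among 36 BCL2 family and caspase genes 1 was higher (2.78%), birc7, and none lower. Sterol synthesis had 1 of 24 higher and 1 lower, glycolysis 3 of 25 higher and none lower, with gapdhs at 35.8 and 133 FPKM, and antioxidant genes 4 of 33 higher and none lower, with the thioredoxin gene txn at 7.77 and 49.2 FPKM. The shares higher were 4.17%, 12% and 12.1% in that order.

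The called loci differed from the rest in level. The level is not independent of the calls, because the floor and the calls use the same 2 values. Loci with a mean of 1 to 5 FPKM were higher in 16.5% and lower in 6.59% of cases, those of 5 to 20 FPKM in 10.1% and 9.77%, those of 20 to 100 FPKM in 3.48% and 6.99%, and those above 100 FPKM in 4.08% and 2.29%. Higher calls were thus densest at low levels. The median difference in these 4 classes was 0.11, -0.24, -0.17 and 0.19 in order, and no list above was compared with members of equal level. Near the floor, 874 members were under 1 FPKM in stage II and passed through stage III, and 425 did the reverse. The part of the floor in these shares was not tested. The median level of higher loci was 4.72 FPKM over the 2 libraries, against 11.7 FPKM for lower loci and 13.8 FPKM for all members. Loci spanning under 2000 bases were called higher in 18.6% and lower in 10.9% of cases, more than in any longer class (8.06% to 10.1% and 6.89% to 8.23%). Over the 25 chromosomes the share higher ran from 6.37% (chromosome 11) to 11.5% (chromosome 16) and the share lower from 5.54% (chromosome 4) to 9.41% (chromosome 14).

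Stages I and IV, which the choice of members did not use, share no library with the comparison. From stage I to stage IV the median difference was -1.13 for the higher loci, -1.25 for the lower loci and -0.74 for all members. Of the higher loci 54.5% were below stage I by 2-fold or more in stage IV, of the lower loci 55.8%, and of all members 43.4%. The median level was 2.46 FPKM in stage I and 0.195 FPKM in stage IV for the higher loci, 13.7 and 3.80 FPKM for the lower loci, and 11.9 and 5.50 FPKM for all members.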

How the data were processed

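Poly(A) RNA libraries with dUTP in the second strand were made from stage I to IV oocytes, 1 library per stage, per the labels' protocols. Per the submitters' processing notes, the tools were STAR 2.5.3a, Trim Galore, Bowtie2 2.2.2 and Bismark, with no step assigned to each, and the build was danRer7. The sources used here name no program for FPKM or its bounds. Each deposited table gives FPKM with lower and upper bounds per locus, per the file headers. FPKM_status was OK at every locus of stages II and III. Tables were joined on symbol and locus, and 1 was added to starts, because the deposited interval length divides by 3 at 10 of 13 mitochondrial protein genes. Differences are log2(FPKM + 1), stage III minus stage II, with calls at 2-fold. Fragment equivalents were derived from the bound widths.

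Named genes were the 15 highest and 15 lowest called loci with bounds apart, a mean of at least 5 FPKM and a span of at least 300 bases, plus extreme and defining list members. Where a symbol had several loci, lists used its most abundant one. Members and the 41 lists were chosen with earlier results of these data known, and 2 lists were added after the values were seen. Alternatives were pseudocounts of 0.1 and 5, other floors, a fold of 4, 3 scalings and 1 locus per symbol. A run on simulated data with planted 4-fold changes at well-counted loci checked the script only. It held no replicate error, so it cannot say how reliable the 2-fold calls are. Python 3.11.15, numpy 2.4.6, pandas 2.3.3 and matplotlib 3.10.9 were used. Genomic or protein sequence was not used here.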

Additional observations from a re-analysis of the deposited data

How the results depend on the processing

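The counts of higher and lower loci changed with the pseudocount, the floor and the fold. With a pseudocount of 5 there were 494 higher and 365 lower loci, and 474 and 345 with bounds apart. With a mean of at least 10 FPKM there were 390 and 575, and 377 and 561 with bounds apart. With a fold of 4 there were 264 and 61. Rescaling both libraries to the same summed FPKM gave 1838 lower loci, 1680 of them with bounds apart. Without loci under 1 FPKM in either library, an alternative chosen after seeing the data, 871 loci were higher and 891 lower. The higher share of the calls was 55.9% as reported, 39.7% after rescaling to equal sums, 45.7% after rescaling without mitochondrial genes and rps20, and 63.8% after median-of-ratios scaling. Leaving out the lists of other cell types, also chosen after seeing the data, gave 1249 higher loci. The medians of 12 of the 43 lists took both signs over the settings, and no direction is drawn from them. With no floor, several list medians were lower, as given beside them. The 15 highest and 15 lowest named loci kept their sign under the pseudocounts and scalings, which was fixed in advance. A pseudocount cannot turn a sign, and the scalings shifted stage III against stage II by only -0.19 to 0.09 before 1 FPKM was added. After that addition single differences could move further, and SMIM13 (2 of 2) was at -6.15 after rescaling to equal sums. The sizes did change, and 49 values moved outside the range given by the bounds, while 101 stayed inside. For SMIM13 (2 of 2) the difference was -5.67 as reported, -3.45 with a pseudocount of 5 and -8.96 with 0.1. Other named genes with a positive difference under 0.19 can turn negative after rescaling to equal sums. No endothelial gene had a mean of 10 FPKM or more, and promoter motifs were not analysed here. No paired analysis was possible because each stage has 1 library and no test was made, and no replicate could be left out.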

Other observations

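A list of genes that present peptides on MHC class I molecules was drawn up after the values were seen. It shares 6 genes with the proteasome list, which enter the counts of both. Of 18 genes 12 were higher (66.7%, beside 9.26% of all members) and none lower. The median difference was 1.3, beside -0.08 over all members. As the list was chosen with the values known, its count and median only describe it. Of 27 blood and macrophage genes 16 were higher (59.3%, median 1.14), and their part in this result was not tested. The light chain b2m had 83.6, 78.9, 202 and 4.25 FPKM from stage I through IV, and the heavy chain mhc1uba had 34.2, 35.6, 139 and 0.153 FPKM. The peptide transporter tap1 was level at 4.31 and 4.65 FPKM in stages II and III. MHC genes are a family of close copies, and the counting may have divided reads among them, which was not tested.

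A list of genes for protein entry and folding in the endoplasmic reticulum was also drawn up after the values were seen. Of 59 genes 4 were lower and 1 higher (median -0.28), and 6.78% lower is near the 7.31% of all members. The disulphide isomerases pdia4 and p4hb were at 382, 371, 117 and 37.9 FPKM and at 804, 374, 152 and 63.5 FPKM from stage I through IV, the translocon subunit sec61a1 was at 220.2 and 92.4 FPKM in stages II and III, and the retrieval receptor kdelr2b was at 101 and 38.1 FPKM. The chaperone hspa5 was at 766 and 460.4 FPKM. Translocon subunits did not share one direction, since sec61g was at 1401 and 2148 FPKM.

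Among the 31 loci with more than 10 times the level of every other stage in stage III were gata5 (2.39 and 28.8 FPKM in stages II and III), a transcription factor, the laminin chain lama5 (0.324 and 10.5 FPKM), s100a11 (5.83 and 92.6 FPKM), the basement membrane gene tinagl1 (6.36 and 96.4 FPKM), the peptide gene nts (0.805 and 22.5 FPKM) and pomcb (0.876 and 11.1 FPKM). These were chosen after their values were seen. In stage II 10 members listed at 0 had 5 FPKM or more in stage III, and 7 did the reverse. At one locus of alcama, which spans 60 bases, the listed FPKM was 487 in stage II with bounds of 0 to 1178, and 0 in the other 3 stages.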
